A study of Drosophila melanogaster with 4 samples.

Results

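The 10 genes described here, chinmo, brat, pros, dpn, mira, insc, cas, grh, nab and Syp, govern the fate and the timing of neuroblasts, the neural stem cells of the fly. They were chosen by name, and their annotated positions on the dm6 build were set against the domains and loops of a Hi-C study, with 100 kb taken on both sides of each gene. They are 10 of 11749 protein-coding genes on 2L, 2R, 3L, 3R and 4. In situ Hi-C ligates neighbouring chromatin fragments inside the nucleus, here cut with DpnII, and each sequenced pair counts as 1 contact. The study compared untreated BG3 cells, a line from the larval central nervous system, with untreated Kc167 cells, an embryonic line, with 2 replicates of each. The replicates were merged into 1 map per line before domains and loops were called, so every difference below is a difference between 2 maps with no spread between replicates. Both are established lines, no label says that BG3 cells are neuroblasts, and the lists hold no RNA level against which the neural label or the activity of a gene could be checked. The median observed count of an autosomal loop was 54.0 contacts in BG3 and 65.0 in Kc167.

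A neuroblast divides asymmetrically, renewing itself and giving off a smaller ganglion mother cell that divides once more into neurons or glia. At mitosis the fate determinants Prospero and Brat are carried to the basal side by the adaptor Miranda, while Inscuteable sits apically and helps to turn the spindle. Neuroblasts also change with age. Embryonic ones express a series of transcription factors that ends with Castor and Grainy head, and larval ones pass from an early state with Chinmo to a late state with the RNA-binding protein Syncrip, the product of Syp. A topologically associating domain (TAD) is a stretch of chromosome whose loci contact each other more than they contact loci beyond its borders. A loop is a pair of 2 kb anchors with more contacts than their surroundings.

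In this text a border is the end of a TAD. It is strong if it was also found with the stringent setting of the TAD caller, and weak otherwise. It is conserved if a border of the other map lies within 20 bp, fuzzy if the nearest one lies up to 2 kb away, and specific if it lies farther. The 5' end of a gene is the annotated start of its longest extent, and some genes have further transcript 5' ends, each an annotated alternative promoter. Counts for the 10 genes are given beside the same share over all protein-coding genes of these chromosomes. The 10 genes are long. Their median length was 28.2 kb, against 2.10 kb for all, and a long gene has more room for a border or an anchor. The share over genes of 10 kb or more is therefore given as well for borders inside, coding bases beside them and loops in each map. Transcript 5' ends near a border, and loops in both maps or in neither, are set against all genes only.

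More of the 10 genes had a border inside than had one at the 5' end. A border lay inside 5 of the 10 genes in each map, chinmo, brat, pros, insc and Syp in both, with 7 borders in BG3 and 6 in Kc167. Over all genes the share with a border inside was 8.69% in BG3 and 9.81% in Kc167. Among genes of 10 kb or more, 5 of the 6 that belong here had one in each map, where the share over all genes of that length was 28.3% in BG3 and 30.8% in Kc167. The 5' end itself was within 2 kb of a border for 1 gene in BG3, brat, and for 2 in Kc167, brat and insc, where the shares over all genes were 17.3% and 19.8%. With any transcript 5' end counted, 2 genes in BG3 (brat and Syp) and 4 in Kc167 (chinmo, brat, insc and Syp) had one within 2 kb, against 18.3% and 20.8%. The 10 genes have 25 transcript 5' ends, and the median over all genes is 1 per gene, so these shares are not like for like. The map of the 10 loci shows the borders, the 5' ends and the loops at each gene.

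**Figure D1:**
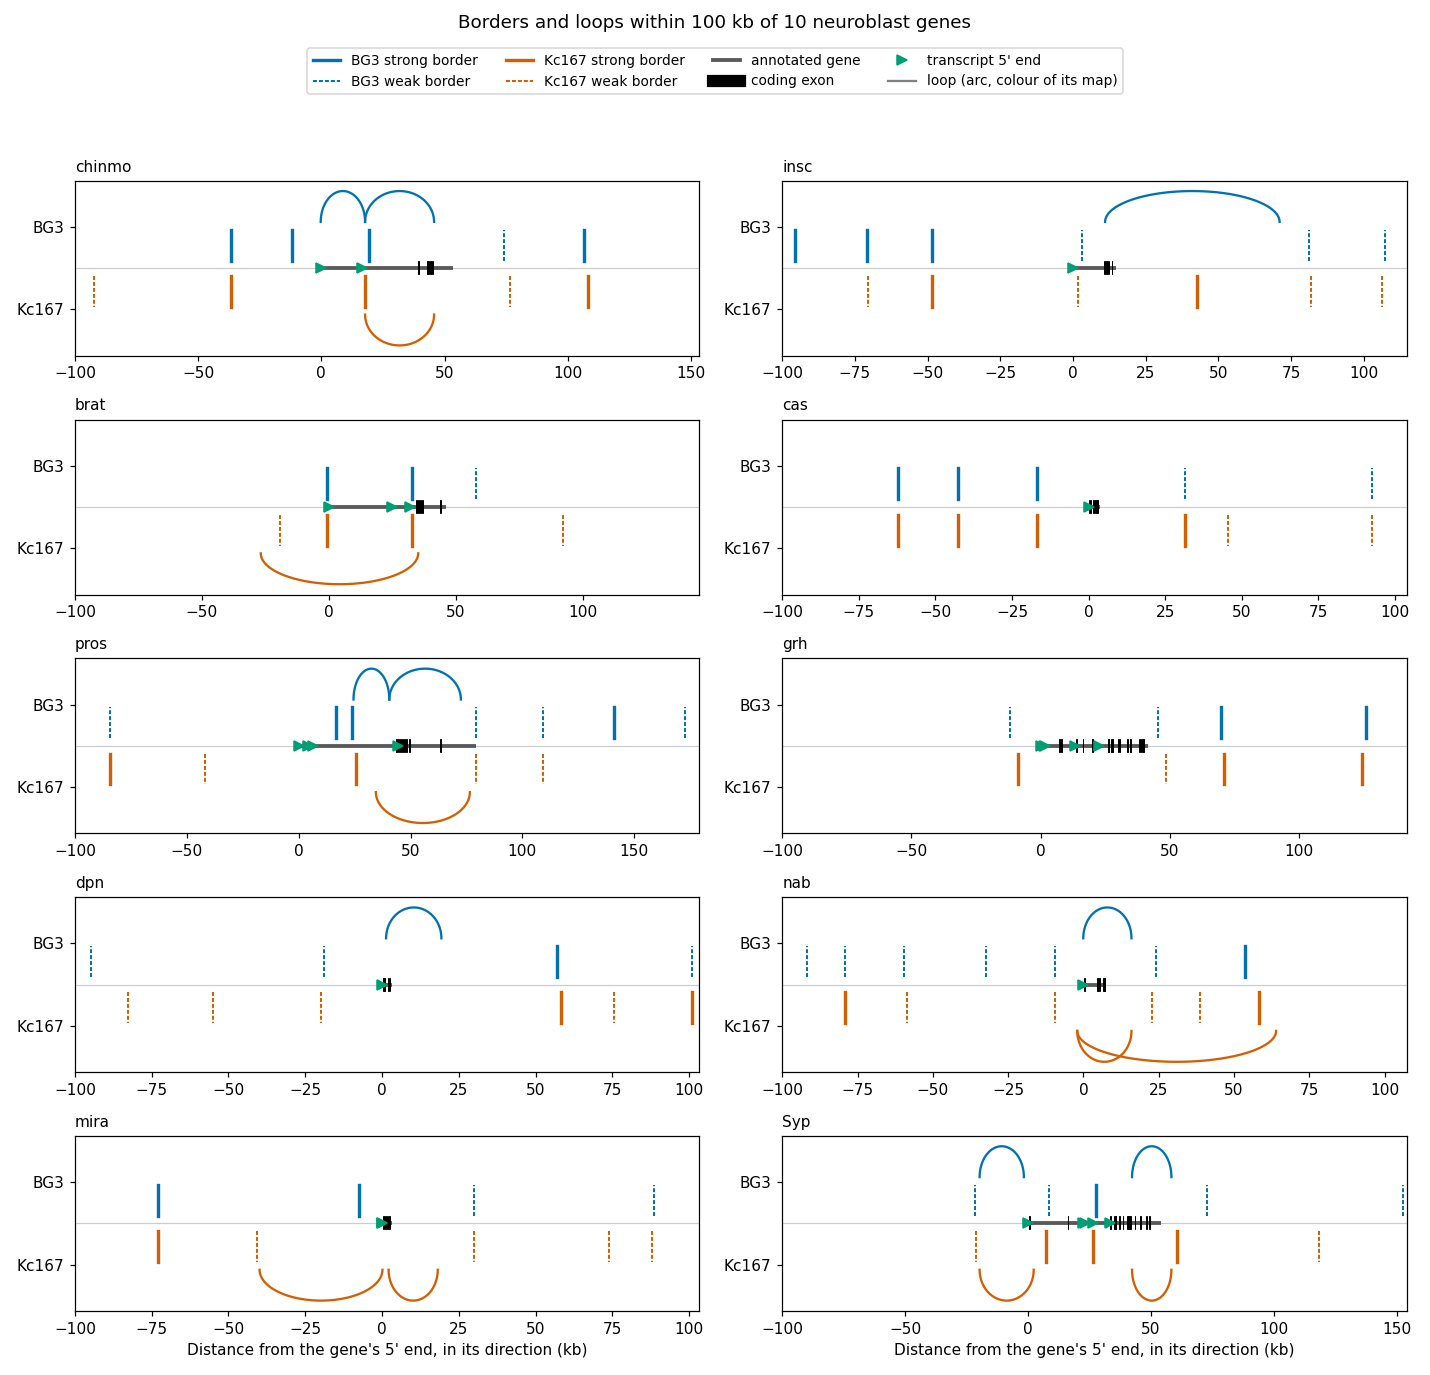
Borders (vertical lines, solid for strong and dashed for weak) of BG3 (above the gene) and Kc167 (below it), and the loops at each gene (arcs), against the distance in kb from the gene's 5' end in the direction of its transcription. The grey bar is the gene, black blocks are coding exons and green triangles are transcript 5' ends. A border lies inside chinmo, brat, pros, insc and Syp in both maps, and cas and grh have no loop.

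Borders inside these genes had all or nearly all coding bases downstream of them. The first 5' end is upstream of any internal border by definition, so only further transcript 5' ends and the coding bases say where a border lies. At chinmo and brat the further 5' ends were upstream of the internal border too, and every coding base was downstream of it, in both maps. At insc, which has 1 transcript 5' end, every coding base was downstream. At pros and Syp the transcript 5' ends lay on both sides of the internal borders. At pros 3 were upstream and 1 was downstream of each border. At Syp 1 was upstream and 4 were downstream of the border nearer to the gene's 5' end, in each map. For the farther Syp border, 4 were upstream and 1 was downstream, in each map. At pros all coding bases were downstream of each internal border, and at Syp between 96.3% and 99.5% of them. With a limit of 95%, which was chosen after these values were seen, all 5 genes with a border inside had their coding bases downstream of every such border in each map. Over all genes with a border inside, the share was 49.6% in BG3 and 50.5% in Kc167, and over those of 10 kb or more it was 46.9% and 47.3%.

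**Figure D2:**
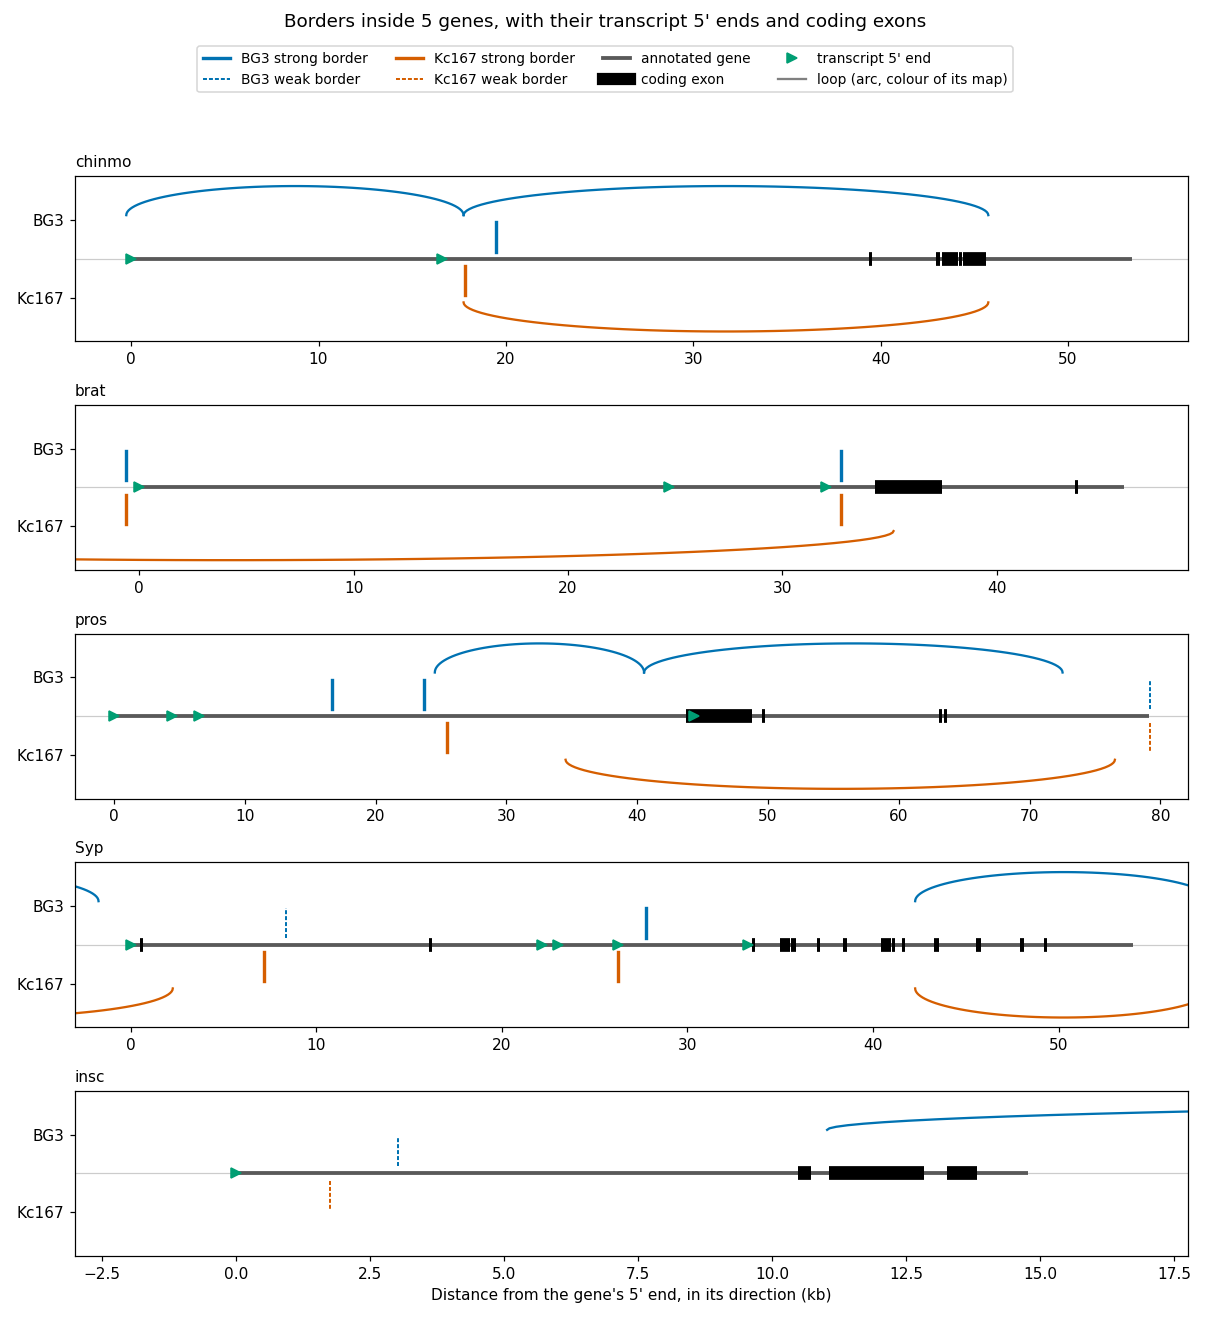
Borders inside 5 genes, drawn as in the map of the 10 loci but within the gene only, against the distance in kb from the 5' end. Nearly all coding bases lie to the right of the internal borders, and the 2 maps place them within 2 kb of each other except for 1 BG3 border in pros.

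chinmo encodes a BTB zinc finger protein that marks early-born neurons and young neuroblasts. It lies on 2L from 1651258 to 1704682 on the plus strand (FBgn0086758) and has 2 transcript 5' ends, at 1651258 and 1667847. The BG3 border inside it was at 1670706, in an intron, 2859 bp past the second 5' end. The Kc167 border was at 1669090, 1243 bp past the same 5' end. These borders are 1616 bp apart and thus fuzzy, and both were strong. All 2520 coding bases lay beyond them. Their TAD separation scores, which are lower where fewer contacts cross a border and are compared within a map alone, were 0.658 in BG3 and 0.850 in Kc167, the highest among the borders inside the 10 genes in each map. The 5' end of chinmo was held by a TAD of 31.3 kb in BG3 and of 54.6 kb in Kc167. The difference lay on the upstream side, where BG3 had a strong specific border at 1639379, 11879 bp from the 5' end and 24895 bp from any Kc167 border. Kc167 had its upstream border at 1614484, 36774 bp from the 5' end, and BG3 had a border at that base too.

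Loops at chinmo stayed within the gene. Both maps held a loop of 28 kb in the same pixel, from the anchor 1668001 to 1670000, which starts 154 bp past the second 5' end, to the anchor 1696001 to 1698000 over a coding exon. It had 38 observed contacts in BG3, 6.15 times the expected number (95% Poisson interval 4.35 to 8.44), and 52 in Kc167, 6.0 times (4.48 to 7.87). BG3 also held a loop of 18 kb from the anchor 1650001 to 1652000, over the first 5' end, to that same anchor by the second 5' end. It had 42 observed contacts, 3.11 times the expected number (2.24 to 4.21). No Kc167 loop had both anchors within 10 kb of it. The shared anchor holds the Kc167 border, and the BG3 border lay 706 bp from its edge.

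The sequences before 6 promoters are shown. Those of the second chinmo, the third brat and the fourth Syp 5' end are the ones by an internal border, that of the first chinmo 5' end lies in a BG3 loop anchor, that of the first brat 5' end lies by the upstream border, and that of Lim3 lies by the anchor of a loop to brat. Each is the 250 bases 5' of the transcript 5' end, read on the strand of the gene from the RefSeq sequence of the dm6 assembly. Capitals mark GAGAG, the repeat that GAGA factor binds, and CGATA, part of the element bound by Dref and BEAF-32, on either strand (CTCTC and TATCG on the other). The chinmo stretches are chr2L:1651008-1651257 for the first 5' end and chr2L:1667597-1667846 for the second.
chinmo promoter 1: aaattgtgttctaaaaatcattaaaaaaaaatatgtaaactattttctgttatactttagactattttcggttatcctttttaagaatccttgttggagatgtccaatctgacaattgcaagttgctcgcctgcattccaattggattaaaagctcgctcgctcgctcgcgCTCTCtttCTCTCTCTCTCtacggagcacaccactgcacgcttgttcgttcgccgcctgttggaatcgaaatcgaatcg
chinmo promoter 2: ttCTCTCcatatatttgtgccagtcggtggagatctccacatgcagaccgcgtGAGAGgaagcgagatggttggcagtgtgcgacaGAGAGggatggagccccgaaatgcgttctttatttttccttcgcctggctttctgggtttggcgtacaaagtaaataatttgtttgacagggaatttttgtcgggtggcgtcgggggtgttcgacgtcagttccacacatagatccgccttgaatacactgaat
The first held 5 matches to GAGAG, overlapping ones included, and the second 3, and neither held CGATA.

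brat encodes an RNA-binding repressor of translation that stops daughter cells from reverting to neuroblasts. It lies on 2L from 19133816 to 19179758 on the plus strand (FBgn0010300), with 5' ends at 19133816, 19158540 and 19165867. Both maps gave it the same TAD, from 19133188 to 19166539, a width of 33.4 kb, and the stringent setting returned that TAD in both maps as well. The upstream border lay 629 bp before the first 5' end, in a coding exon of Polr1D, an RNA polymerase subunit gene on the minus strand that overlaps the start of brat. A transcript 5' end of Polr1D lay closer to that border, at 296 bp, so the border cannot be given to one of the genes. The other border lay in a brat intron, 672 bp past the third 5' end. Both were conserved at the same base and strong in both maps. The TAD thus held all 3 transcript 5' ends and none of the 3188 coding bases, which follow it. No BG3 loop had an anchor at brat. In Kc167 a loop of 62 kb joined the anchor 19168001 to 19170000, over brat coding exons and 1462 bp past the internal border, to the anchor 19106001 to 19108000. The far anchor lies within 1 kb of the 5' end of Lim3, a LIM homeodomain gene of motor neurons. The loop had 70 observed contacts, 3.69 times the expected number (2.88 to 4.67), and 3 Kc167 borders lay between its anchors. The BG3 loop most like it had an anchor shifted by 66000 bp.

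The brat stretches are chr2L:19133566-19133815 for the first 5' end and chr2L:19165617-19165866 for the third. The Lim3 stretch is chr2L:19108428-19108677, printed on the minus strand.
brat promoter 1: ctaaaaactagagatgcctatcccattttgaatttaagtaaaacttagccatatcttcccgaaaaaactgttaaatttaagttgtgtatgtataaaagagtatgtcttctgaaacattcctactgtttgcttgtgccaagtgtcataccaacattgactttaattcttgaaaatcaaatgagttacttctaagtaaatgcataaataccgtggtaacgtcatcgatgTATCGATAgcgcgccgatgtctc
brat promoter 3: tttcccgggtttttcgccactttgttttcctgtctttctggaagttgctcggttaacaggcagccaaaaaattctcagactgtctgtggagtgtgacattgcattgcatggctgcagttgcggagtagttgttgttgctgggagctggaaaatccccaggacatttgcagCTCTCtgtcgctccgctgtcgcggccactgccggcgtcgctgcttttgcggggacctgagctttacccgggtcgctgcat
Lim3 promoter: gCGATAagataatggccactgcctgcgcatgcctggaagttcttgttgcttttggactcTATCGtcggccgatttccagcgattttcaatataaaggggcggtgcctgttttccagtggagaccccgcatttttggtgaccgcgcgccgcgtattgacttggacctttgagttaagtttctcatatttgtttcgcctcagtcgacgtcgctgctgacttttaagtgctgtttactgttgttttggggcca
The first brat promoter, which overlaps a coding exon of Polr1D, held 2 matches to CGATA that overlap in 1 full TATCGATA, and no GAGAG. The third held 1 match to GAGAG. The Lim3 stretch held 2 matches to CGATA, apart from each other, and no TATCGATA.

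pros encodes a homeodomain protein that enters the nucleus of the ganglion mother cell and turns off neuroblast genes. It is the longest of the 10, on 3R from 11328480 to 11407627 on the plus strand (FBgn0004595), with 4 transcript 5' ends. Its 5' end was held by a TAD of 101 kb in BG3 and of 67.1 kb in Kc167, wider than 87.9% and 78.4% of autosomal TADs in their maps. BG3 had 2 strong borders in the gene, at 11345170 and 11352161, and Kc167 had 1, at 11353937, also strong. The second BG3 border and the Kc167 border were 1776 bp apart. The first BG3 border was specific, 8767 bp from any Kc167 border. The second BG3 border and the Kc167 border lay by the 5' end of KP78a, one of 2 kinase genes, KP78a and KP78b, inside a pros intron, at 970 bp and 806 bp. Of the 4 transcript 5' ends of pros, 3 were upstream of all internal borders and 1 was downstream of them. At the 3' end, a conserved weak border lay at 11407677 in both maps, 241 bp from the 5' end of mRpL40.

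All 3 loops at pros lay within the gene. BG3 had a loop of 16 kb from the anchor 11352001 to 11354000, which holds the borders by KP78a, to an intron, with 49 observed contacts and 2.76 times the expected number (2.04 to 3.65). From that intron a BG3 loop of 32 kb ran to the 3' UTR, with 34 contacts and 3.04 times the expected number (2.10 to 4.24). Kc167 had a loop of 42 kb with anchors within 6000 bp of those of the latter, with 62 contacts and 3.07 times the expected number (2.35 to 3.93). The BG3 loop of 16 kb had no Kc167 counterpart.

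Syp encodes an RNA-binding protein of the hnRNP family that acts late in larval neuroblasts and lowers Chinmo. It lies on 3R from 20756729 to 20810726 on the plus strand (FBgn0038826) and has 5 transcript 5' ends. Each map placed 2 borders in it. The first pair, at 20765097 in BG3 (weak) and 20763904 in Kc167 (strong), lay in an intron 8368 bp and 7175 bp past the first 5' end. The 5' end closest to these borders was that of CG31195, which lies inside Syp, at 2728 bp in BG3 and 1535 bp in Kc167. The second pair, at 20784488 in BG3 and 20783000 in Kc167, both strong, lay past the fourth 5' end, by 1505 bp in BG3 and by 17 bp in Kc167. Both pairs were fuzzy. The gene thus spanned 3 TADs in each map, and its first TAD was the narrowest among the 10 genes, 29.8 kb in BG3 and 28.4 kb in Kc167. The stretch before the fourth 5' end, chr3R:20782733-20782982, is shown because the Kc167 border lay closest to it.
Syp promoter 4: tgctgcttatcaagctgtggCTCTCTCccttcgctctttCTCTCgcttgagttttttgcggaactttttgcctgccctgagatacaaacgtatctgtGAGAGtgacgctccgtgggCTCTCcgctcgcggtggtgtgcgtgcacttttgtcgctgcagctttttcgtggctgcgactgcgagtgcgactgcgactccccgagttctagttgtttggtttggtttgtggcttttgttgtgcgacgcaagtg
It held 5 matches to GAGAG and none to CGATA.

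Both ends of Syp had a loop in both maps. The upstream loop joined the region of the first 5' end to an anchor by Cdk2, a cell cycle kinase gene, over 18 kb in BG3 with 69 contacts and 2.14 times the expected number (1.67 to 2.71), and over 22 kb in Kc167 with 153 contacts and 2.38 times (2.02 to 2.79). In BG3 the anchor on the Syp side ended 729 bp before the first 5' end and is counted only through the extension of 2 kb. In Kc167 it lay in a Syp intron, 1272 bp past that 5' end. The Cdk2 anchor lay 680 bp from the BG3 border and 458 bp from the Kc167 border that bound the first TAD of Syp. The downstream loop, of 16 kb in the same pixel in both maps, joined coding exons to an anchor by the 5' end of Fancd2, a DNA repair gene. It had 66 contacts in BG3, 1.97 times the expected number (1.52 to 2.51), and 115 in Kc167, 2.37 times (1.95 to 2.84).

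insc encodes the adaptor that links the apical polarity complex to the machinery that orients the spindle. It lies on 2R from 20821262 to 20836028 on the minus strand (FBgn0011674) and shares its 5' end with sktl, a phosphoinositide kinase gene, so the borders there cannot be given to one of the genes. The border was 3017 bp past the 5' end in BG3 and 1760 bp past it in Kc167, fuzzy and weak in both. Another transcript 5' end of sktl, which insc does not share, lay closer to the BG3 border, at 593 bp. The TAD of the insc 5' end ran from the internal border to the same upstream base in both maps, 20884525, with widths of 51.5 kb and 50.3 kb. A BG3 loop of 60 kb ran from coding exons of insc to an anchor with no gene, with 26 observed contacts and 3.54 times the expected number (2.31 to 5.19). Kc167 had no loop at insc.

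mira encodes the adaptor that carries Prospero and Brat to the basal side. It lies on 3R from 19931799 to 19935120 on the minus strand (FBgn0021776), within the span of Hs6st, a heparan sulfate sulfotransferase gene. Its nearest border differed most between the maps among the 10 genes. BG3 had a strong specific border 7580 bp upstream, inside Hs6st and 288 bp from the 5' end of CG46042, and the closest Kc167 border to it was 33144 bp away. In Kc167 the nearest border was 29919 bp downstream, conserved and weak, 37 bp from the 5' end of RhoGAP92B. Both maps shared that downstream border, and the TAD of mira was 37.5 kb in BG3 and 70.6 kb in Kc167. Kc167 had 2 loops at mira and BG3 had none. One, of 16 kb, led downstream to an anchor by CG4465, CG4770, Xport-A and Xport-B, with 117 contacts and 1.94 times the expected number (1.60 to 2.32). The other, of 40 kb, led from the 5' end of mira to a Kc167 border inside Hs6st, with 72 contacts and 1.81 times (1.42 to 2.28). Its q-value of 0.0311 was the highest among the loops at the 10 genes. The BG3-specific border lay between the anchors of that loop.

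dpn encodes a repressor of the Hes family that keeps neuroblasts renewing. It is a short gene on 2R from 8228971 to 8232330 on the minus strand (FBgn0010109). The nearest border was 18823 bp upstream in BG3 and 19785 bp upstream in Kc167, 962 bp apart, fuzzy and weak. Its TADs of 75.7 kb and 78.1 kb overlapped over 96.8% of their union. A BG3 loop of 18 kb joined dpn to LRP1, a lipoprotein receptor-related gene, with 94 contacts and 2.09 times the expected number (1.69 to 2.56). Kc167 had no loop at dpn, and the Kc167 loop most like the BG3 one had an anchor shifted by 52000 bp.

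The late transcription factor genes cas and grh had no loop in either map. cas encodes the zinc finger protein Castor and lies on 3R from 5712975 to 5716805 on the minus strand (FBgn0004878). Both maps gave it one TAD, from 5685335 to 5733562 (48.2 kb), and all 5 BG3 borders within 100 kb of cas were conserved. Kc167 had a further border in that window, at 5671324, weak and specific, 14010 bp from any BG3 border. The border nearest to the 5' end of cas was 16757 bp upstream, strong in both maps, and 49 bp from the 5' end of CG1239. The border at the other end of the TAD was weak in BG3 and strong in Kc167. The closest loop within its window was a loop of 26 kb in the same pixel in both maps, from an anchor by CG1236 and CG2100, with 22 contacts and 5.08 times the expected number in BG3 and 50 contacts and 4.82 times in Kc167.

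grh encodes Grainy head, a factor of the CP2 family that is expressed last in the series. It lies on 2R from 17801132 to 17842820 on the plus strand (FBgn0259211), has 5 transcript 5' ends, and had no border inside and no loop in either map, unlike the other 5 long genes, each of which had both in at least 1 map. All 5 of its 5' ends and all of its coding exons lay in one TAD, which measured 57.0 kb in BG3 and 57.1 kb in Kc167. Both ends of that TAD were shifted between the maps, by 2877 bp upstream and 3048 bp downstream, and are therefore called specific. The upstream border lay 30 bp from the 5' end of Ubc10 in BG3 (weak) and 553 bp from that of Dhit in Kc167 (strong).

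nab encodes a transcriptional cofactor that acts late in neuroblast lineages of the embryo. It lies on 3L from 4153618 to 4160932 on the minus strand (FBgn0259986). The nearest border, 9528 bp upstream, was conserved and weak in both maps and 56 bp from the 5' end of Ero1L. Its TADs of 33.6 kb and 32.2 kb overlapped over 96.0% of their union. A loop led downstream to CG32260 in both maps. In BG3 its anchor held the 5' end of nab, with 80 contacts over 16 kb and 2.27 times the expected number (1.80 to 2.82). In Kc167 the anchor was the next 2 kb upstream, 1069 bp from the 5' end and inside mas, a serine protease homologue gene, with 217 contacts over 18 kb and 2.12 times (1.85 to 2.42). From that same anchor a Kc167 loop of 66 kb led to CG14995, across 3 Kc167 borders, with 95 contacts and 4.61 times the expected number (3.73 to 5.63). The Kc167 loops are counted here through the extension of 2 kb, since the anchor does not overlap nab.

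With the permissive setting of the TAD caller, the enclosing TADs of the 10 genes were alike in both maps for most, and differed at 3. The same TAD was called in both maps for 2 of 10, brat and cas, against 7.89% of all genes. The shared part of the union of both TADs ranged from 52.8% for chinmo to 100% for brat and cas, with a median of 95.6%, against 61.0% over all genes. It was 52.8% at chinmo, 53.1% at mira and 53.2% at pros, and at least 90.1% at the other genes. The TAD was wider in BG3 for 4 genes (pros, insc, nab and Syp) and wider in Kc167 for 4 (chinmo, dpn, mira and grh), against 54.2% and 37.9% of all genes. The median width was 42.9 kb in BG3 and 52.4 kb in Kc167, where that over all genes was 61.1 kb and 48.5 kb. With the stringent setting more of the TADs differed. They measured 435 kb in BG3 and 48.2 kb in Kc167 at cas, 257 kb and 79.8 kb at grh, and 258 kb and 137 kb at nab. At insc they measured 213 kb and 91.1 kb, and at Syp 163 kb and 120 kb. The stringent TAD was wider in BG3 for 6 genes, these and pros. It was wider in Kc167 at chinmo, dpn and mira, and the same at brat. No share over all genes was computed for it. The stringent lists held 982 TADs in BG3 and 1300 in Kc167 over all chromosomes. Wider stringent TADs in BG3 therefore cannot be read as a trait of the 10 genes.

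**Figure D3:**
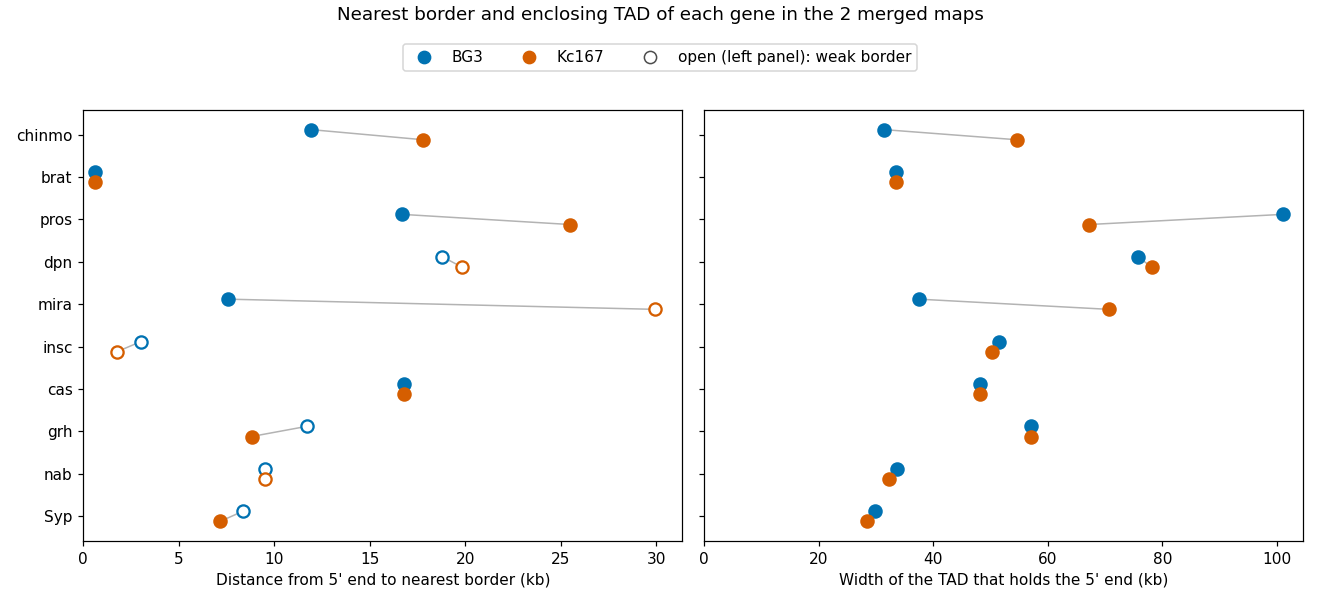
Distance in kb from the 5' end of each gene to the nearest border (left; open circles are weak borders) and width in kb of the TAD that holds the 5' end (right), in BG3 (blue) and Kc167 (orange), with 1 value per map and no error. Both maps agree for brat, cas and nab on the left, and differ most at mira, where the distance is 7.58 kb in BG3 and 29.9 kb in Kc167.

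By class of the nearest border, BG3 had 3 conserved (brat, cas and nab), 3 fuzzy and 4 specific ones among the 10, against 34.2%, 26.4% and 39.3% of all genes. Kc167 had 4 conserved, 5 fuzzy and 1 specific, against 29.7%, 23.2% and 47.1%. The nearest border was strong for 5 genes in BG3 and 6 in Kc167, against 34.0% and 45.3%. The median distance to it was 10.6 kb in BG3 and 13.1 kb in Kc167, and 11.1 kb and 9.10 kb over all genes. Within the windows of 100 kb, 17 of 50 BG3 borders were conserved, 34.0% (95% Wilson interval 22.4 to 47.8, which covers counting error only), and over all autosomal BG3 borders the share was 28.9% (26.9 to 31.0), so the interval around the genes holds the overall share.

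Loops touched 6 of the 10 genes in each map, chinmo, pros, nab and Syp in both, dpn and insc in BG3 alone, and brat and mira in Kc167 alone. The share over all genes was 16.3% in BG3 and 21.8% in Kc167. Among the 6 long genes, 4 had a loop in each map, and the share over genes of 10 kb or more was 36.3% and 46.6%. A loop in both maps was found at 4 genes, against 8.38% of all genes, and in neither map at 2, cas and grh, against 70.2%. Each map held 9 loops at the 10 genes, out of 771 autosomal loops in BG3 and 1126 in Kc167. Of the 9, 8 in BG3 and 7 in Kc167 were shorter than 50 kb. Both anchors lay at the same gene for 4 of the 9 BG3 loops (2 at chinmo and 2 at pros) and for 2 of the 9 Kc167 loops (1 at each), against 33.5% of BG3 and 28.2% of Kc167 loops. An anchor covered an own transcript 5' end in 2 BG3 loops, at chinmo and nab, and in 1 Kc167 loop, at mira.

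**Figure D4:**
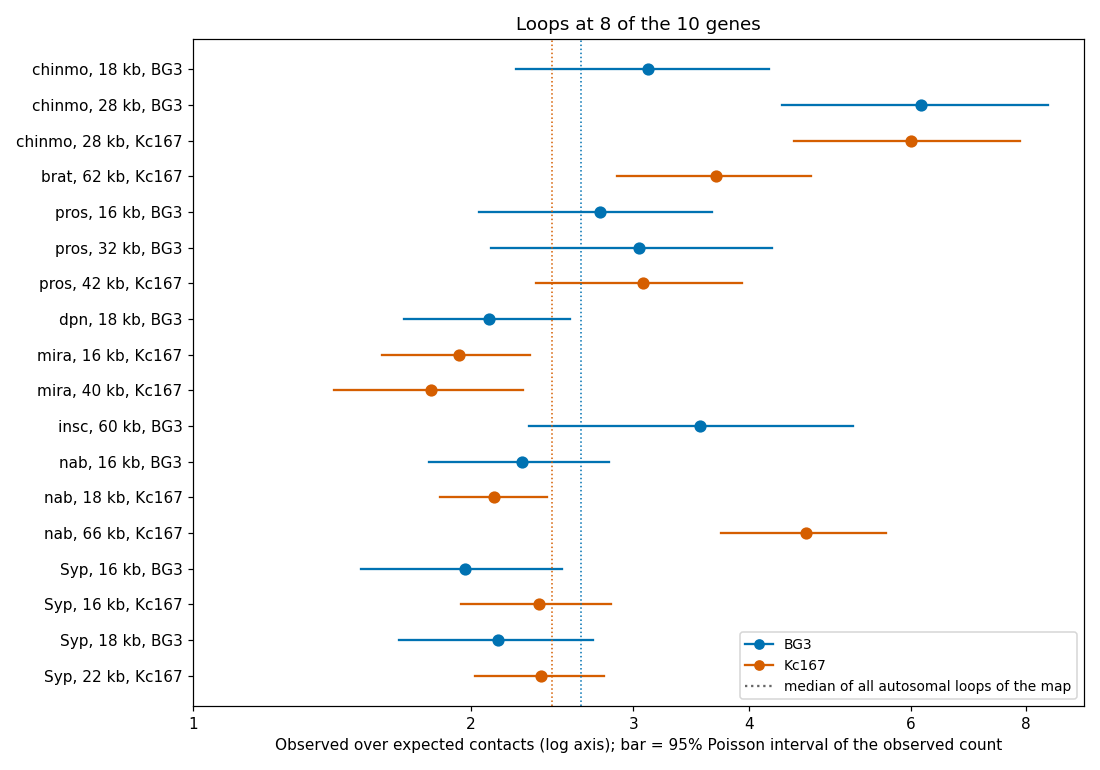
Ratio of observed to expected contacts (log axis) of each loop at the genes, with bars for the 95% Poisson interval of the observed count, in BG3 (blue) and Kc167 (orange). Dotted lines are the medians over all autosomal loops, 2.63 in BG3 and 2.45 in Kc167. The chinmo loop of 28 kb is the highest in both maps, at 6.15 and 6.0, and the intervals of every loop pair shared by the maps overlap.

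No loop held by both maps at these genes passed the test of a difference in strength. The ratios of 331 loops paired between the maps were compared by an exact conditional binomial test on the observed counts, with Benjamini-Hochberg adjustment over all pairs. Of these, 26 differed, 7.85%, with 21 higher in BG3 and 5 higher in Kc167. None of the 5 pairs at chinmo, nab, pros and Syp did, and none had an unadjusted p under 0.05. The ratio in BG3 over that in Kc167 was 1.02 for the chinmo loop of 28 kb (0.656 to 1.59, adjusted p = 1 by the exact test). It was 1.07 for nab (0.817 to 1.39, adjusted p = 0.896 by the exact test) and 0.989 for pros (0.631 to 1.53, adjusted p = 1 by the exact test). For Syp it was 0.899 at Cdk2 (0.667 to 1.20, adjusted p = 0.836 by the exact test) and 0.832 at Fancd2 (0.605 to 1.14, adjusted p = 0.664 by the exact test). These intervals run from 0.605 to 1.59, and a p that misses the threshold does not show that the loops are equal. The median of the ratio over all 331 pairs was 1.09, above each of these 5. The direction relative to 1 depended on the expectation used. With the vertical neighbourhood all 5 ratios were above 1, from 1.10 at chinmo to 1.56 at pros (0.994 to 2.40, adjusted p = 0.238 by the exact test), with 1.23 and 1.11 at Syp. The median over all pairs with that neighbourhood was 1.10. A loop called in 1 map alone was not tested for a difference, since the contacts at its pixel in the other map were not used here.

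The motifs named above were counted before every transcript 5' end of the genes. Of the 25 transcript 5' ends of the 10 genes, 18 had GAGAG within the 250 bases before them, and 2 had CGATA, one each at brat and grh. At the 10 gene 5' ends, 6 had GAGAG and 1 had CGATA. Over the gene 5' ends of all 11749 genes 26.1% had GAGAG, 41.4% had CGATA, 7.29% had TATCGATA and 2.96% had GGTCACACT, the core bound by M1BP. GGTCACACT was before none of the 25. The shares over all genes take 1 5' end per gene, so the counts over the 25 transcript 5' ends have no like share beside them. Around the borders nearest to or inside the genes, within windows of 300 bp, GAGAG was found at 4 of 14 in BG3 and 2 of 12 in Kc167, against 27.8% and 27.4% of all autosomal borders. CGATA was found at 3 of 14 and 2 of 12, against 35.6% and 37.6%, and GGTCACACT at none, against 2.41% and 2.89%. Several 5' ends belong to the same gene and lie close together, so these matches are not independent, and a match is a description of the sequence.

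Other genes of the same processes, from 3 lists, were placed as follows, with genes on X counted apart. Over all genes the share with a loop was 16.3% in BG3 and 21.8% in Kc167, and that with a 5' end near a border was 17.3% and 19.8%. Over genes of 10 kb or more the share with a loop was 36.3% and 46.6%. The lists were not split by gene length, so their loop counts have no like share beside them. Of 16 autosomal genes of the temporal series, 7 had a loop in BG3 and 9 in Kc167, and 2 and 1 started within 2 kb of a border. The eye and temporal factor gene ey had the highest ratio, 7.77 times over 170 kb in Kc167, with 40 observed contacts. Of 12 autosomal genes of asymmetric division, 5 started within 2 kb of a border in each map, and 3 and 4 had a loop. Conserved borders lay 10 bp from the 5' end of cno and 148 bp from that of Galphai, a spindle orientation gene, and fuzzy ones 284 bp and 3 bp from that of loco in BG3 and Kc167. stau, which encodes an RNA-binding protein that rides with Miranda, had a BG3 loop of 28 kb (4.53 times) and a Kc167 loop of 26 kb (5.08 times). The single Kc167 pixel at cno spans 3088 kb with 15 observed contacts. Of 13 autosomal genes of identity and self-renewal, 2 had a loop in BG3 and 8 in Kc167, and 3 and 2 started within 2 kb of a border. Neighbouring genes in the lists can be counted through the same loop, so these counts are not of independent genes. For example, wor and esg had the same values in Kc167, 2.94 times over 92 kb with 68 observed contacts. Su(H), the Notch effector gene, had a conserved border at 422 bp, and pnt, an effector gene of the EGF receptor pathway, had a Kc167 loop of 72 kb (5.60 times). On X, the 5' end of N was 521 bp from a conserved border and that of baz 47 bp from one.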

How the data were processed

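The 2 replicates of each line were merged by the authors before calling, and the lists cannot be split again. Tools named in the submitters' processing notes are Juicer 1.7.6 and BWA 0.7.15-r1140, with the dm6 build. The authors called TADs with HiCExplorer, once permissively and once stringently, and loops with HiCCUPS on 2 kb pixels. The deposited TAD lists give positions and a TAD separation score, used within 1 map alone. The deposited loop lists give the observed count, expected contacts from 4 neighbourhoods and q-values, of which the one for the donut was used.

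Genes came from Ensembl 115, whose chromosome names match those of the lists and whose chromosomes extend past the last TAD of each list, and sequence from the RefSeq copy of that assembly. Computations used Python 3.11.15, NumPy 2.4.6, pandas 2.3.3, SciPy 1.17.1, pysam 0.24.0 and Matplotlib 3.10.9. A loop was at a gene if an anchor lay in it or within 2 kb, and shared if both anchors paired within 10 kb. Ratios are observed counts over donut expectations, taken as fixed, so intervals cover counting error only. The pairwise test was tested on simulated data.

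The text names the 10 genes, genes with a 5' end within 1 kb of an opposite anchor or near a nearest border, and, per list and map, at most 5 genes with a loop or with a 5' end within 500 bp of a border. Genes spanned by an anchor or a border, such as LRP1 and Hs6st, and mRpL40 were named after their values were seen. The members and lists were chosen with earlier results of these data known. Of 45 alternatives, 41 were planned and 4 added. Depth per library is not given in these lists, and the study reports more filtered reads for Kc167 than for BG3. Contact maps were not used here.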

Additional observations from a re-analysis of the deposited data

How the results depend on the processing

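No paired analysis was possible because the replicates of each line were merged before the lists were made, and for the same reason no replicate could be left out. Across 45 alternatives for 12 results, 34 stayed within 1.5 times the value given, or within its interval, and 11 moved. The count of genes with a 5' end near a border went from 1 to 2 in BG3 within 5 kb and with any transcript 5' end. In Kc167 it went from 2 to 1 within 1 kb or with strong borders only, and to 4 with any transcript 5' end. Genes with a loop in Kc167 went from 6 to 3 with anchors within 2 kb of the 5' end only. Genes whose nearest BG3 border is conserved went from 3 to 6 with a limit of 2 kb, and the conserved share of borders in the windows from 34.0% to 68.0%. The number of shared loops with a different ratio went from 26 to 53 with the bottom-left expectation, to 40 with the horizontal one, and to 7 for pairs in the same pixel. No pair at the genes passed the test under any of these, and the lowest adjusted p at a member pair was 0.0578 by the exact test, with the horizontal expectation, against 0.199 to 0.822 with the others. With the horizontal and with the vertical expectation, 1 pair each (nab and pros) had an unadjusted p under 0.05. The BG3 over Kc167 ratio turned from below to above 1 at pros (1.28, 1.38 and 1.56 with the bottom-left, horizontal and vertical expectations) and, with the vertical one, at both Syp loops (1.23 and 1.11), and from above to below 1 at chinmo with the horizontal one (0.735). With the bottom-left expectation the chinmo loop of 28 kb has no ratio, since none was expected there. The cause of these shifts was not tested. Only genes of 10 kb or more were counted in the alternatives chosen after seeing the data, which gave 4 genes with a loop and 5 with a border inside in each map. The loops at these genes rest on 26 to 217 observed contacts.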
